A study of Homo sapiens with 12 samples.

Results

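The genes described here build, crosslink and organise the extracellular matrix. They are 39 named genes of collagens, laminins, other matrix glycoproteins, lysyl oxidases and collagen hydroxylases, chosen by name and role, with earlier results of these data known, among 60664 genes counted in MDA-MB-231 cells. MDA-MB-231 is an established human line from a triple-negative breast cancer, with a mesenchymal-like form and strong invasion in culture. RNA was taken after 24 h in medium at pH 7.4, pH 6.9 or pH 6.4, with 4 libraries for each medium. The comparisons address how the RNA of these cells differs in acid medium, as found around poorly perfused tumour tissue, from that at the pH of blood plasma.

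All 3 groups are the same line with the label WT, and no group carries a deletion, a transgene or a drug. Before the medium was changed, 500000 cells were plated and grown at pH 7.4, to 70 to 80% confluence, in high-glucose DMEM with serum, and the pH 7.4 cells are the baseline. The labels name the intermediate medium pH 6.9, whereas the study's protocol text gives 6.7. It is called pH 6.9 here. The labels number the repeats 1 to 4 and do not say that they were separate cultures, so p-values measure the spread between these libraries, which may be technical.

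Collagens are triple helices of 3 chains, assembled in the endoplasmic reticulum. Prolyl and lysyl hydroxylases modify the chains there, and the modified prolines hold the helix together. After secretion, lysyl oxidases turn lysines of the fibres into reactive aldehydes, from which crosslinks form and the fibres stiffen. Fibrillar collagens make up interstitial fibres, while type IV collagen and laminin trimers form the sheet-like basement membrane that epithelial cells rest on and that carcinoma cells cross when they invade. Fibronectin, thrombospondin and tenascin are glycoproteins that bind both cells and fibres.

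Library totals lay between 21060767 and 50643233 counted reads. The pH 7.4 library of repeat 1 stood apart, with 17841 genes detected and a value of -176.67 on the first principal component of log2 CPM, where the other 11 libraries lay between -0.81 and 30.89. The pH 6.4 library of repeat 3 lay at -0.14 on the second component, where the other pH 6.4 libraries lay between 43.42 and 73. The third component parted repeats 1 and 2, at up to 9.72, from repeats 3 and 4, at 14.94 or more, in every medium, so changes within each set of repeats are given beside the main results. CPM are counts divided by library size after TMM scaling.

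Markers of a mesenchymal-like line were high. The summed level of 6 mesenchymal-like markers (VIM, CD44, AXL, ZEB1, CAV1 and MSN) lay between 5613 and 5915 CPM at pH 7.4, 5734 and 6226 CPM at pH 6.9, and 6487 and 7748 CPM at pH 6.4. The summed level of 8 luminal markers lay between 271 and 362 CPM at pH 7.4, 261 and 339 CPM at pH 6.9, and 279 and 356 CPM at pH 6.4. Most of it was the keratin KRT19 (219 to 315 CPM over all libraries), and EPCAM, GATA3 and ERBB3 were also detected in each library, while the receptors and regulator ESR1, PGR and FOXA1 stayed under 1 CPM. Fibroblasts are the usual makers of fibrillar collagen, and 4 of 8 fibroblast markers (PDGFRA, DCN, POSTN and THY1) were under 1 CPM in each library. PDGFRB was detected, at 7.16 to 22.85 CPM over all libraries. The summed level of those 8 markers, which include the members COL1A1, COL1A2 and COL3A1, lay between 65.7 and 94.2 CPM at pH 7.4, 51.1 and 74.8 CPM at pH 6.9, and 34.0 and 48.1 CPM at pH 6.4. Endothelial markers summed to 9.54 to 17.3 CPM at pH 7.4, 11.1 to 14.1 CPM at pH 6.9 and 13.5 to 17.9 CPM at pH 6.4. CLDN5 was at 0 in each library and CDH5, VWF and TEK were under 1 CPM. PECAM1 had 4.90 to 12.43 CPM and KDR 3.10 to 10.92 CPM over all libraries. Leukocyte markers summed to 4.65 to 7.15 CPM, 4.03 to 5.87 CPM and 2.30 to 3.82 CPM in the same order of media, with CD3E at 0. CD14 had 1.37 to 6.12 CPM over all libraries, and the other leukocyte markers were under 1 CPM. The part of these levels in the results was not tested. In bulk RNA, fewer cells of a type and less RNA per cell cannot be told apart.

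Matrix genes moved both ways at pH 6.4. Of the 37 members with enough reads to test, 13 rose and 12 fell at pH 6.4 relative to pH 7.4 (edgeR quasi-likelihood test, Benjamini-Hochberg adjusted p under 0.05 over 17544 genes). These 25 are 67.6% of the members tested, against 30.3% of all genes tested (15.6% higher and 14.7% lower). The members were chosen with earlier results known and were not matched to other genes in level, and the difference between the shares was not tested. Of the basement membrane genes among the members 8 rose and none fell, whereas of the fibrillar collagens among them 4 fell and none rose. In the 4 libraries of each medium, 21 members did not overlap between pH 6.4 and pH 7.4, against 27.9% of all genes. All 25 called members had the same direction within repeats 1 and 2 and within repeats 3 and 4. They were called on these same libraries, so the shared direction is no independent support. Repeats 1 and 2 alone kept 19 of the calls, and repeats 3 and 4 alone kept 14. Over all genes tested these 2 fits called 22% and 8.9%, against 30.3% in the main fit. Without the pH 7.4 library of repeat 1, 15 members rose and 9 fell, and without the pH 6.4 library of repeat 3, 13 rose and 10 fell. Among all genes tested 51.4% of the called genes were higher under TMM scaling and 40.4% under scaling by library size, where 12 members rose and 12 fell.

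**Figure D1:**
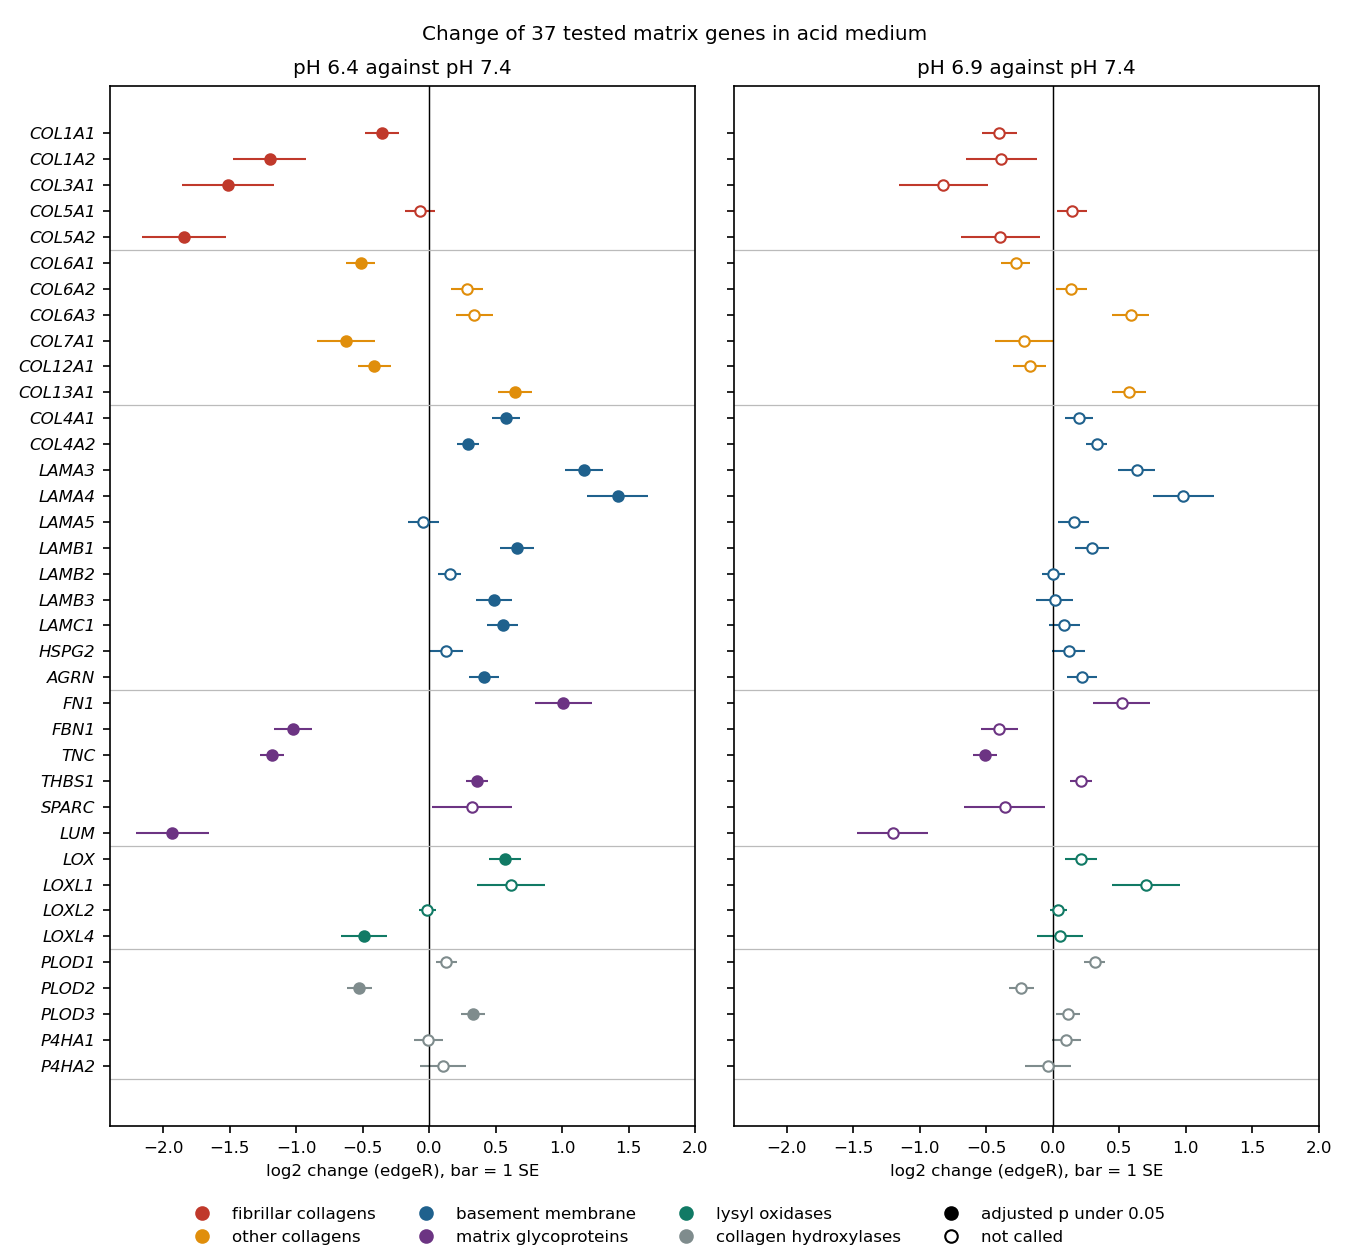
Log2 change of each of the 37 tested members, in a panel for pH 6.4 against pH 7.4 and one for pH 6.9 against pH 7.4, with members ordered and coloured by role. Points are edgeR estimates, bars show 1 SE, and filled points passed an adjusted p of 0.05. At pH 6.4 against pH 7.4 the called laminins lie right of 0 and the called fibrillar collagens left of it, while only TNC passed at pH 6.9 against pH 7.4.

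The fibrillar collagens among the members fell at pH 6.4 in 4 of 5 cases, with a median log2 change of -1.20 over the 5, against -0.001 over all genes tested. None of the 5 rose, and at an unadjusted p under 0.05 the same 4 passed, all of them lower. DESeq2 also called 4 lower and none higher. COL27A1, a fibrillar collagen outside the members, rose (log2 change 0.75, adjusted p = 0.00509). COL5A2 (ENSG00000204262, 2:189031896-189225312 on the minus strand, GRCh38) encodes the second chain of type V collagen, which regulates how thick collagen fibrils grow. It had 3.80, 3.06, 3.16 and 3.61 CPM at pH 7.4, 2.55, 2.66, 2.38 and 2.79 CPM at pH 6.9, and 1.10, 0.842, 1.46 and 0.342 CPM at pH 6.4. Each pH 6.4 library lay below each library of the other media. COL5A2 fell 3.59-fold (log2 change -1.85, SE 0.31, adjusted p = 0.000691), on 10 to 62 reads a library at pH 6.4 against 68 to 162 reads at pH 7.4. Repeats 1 and 2 alone gave a log2 change of -1.81, and repeats 3 and 4 alone -1.83.

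COL3A1 (ENSG00000168542, 2:188974320-189012746 on the plus strand), the single chain of type III collagen, lies beside COL5A2 and was also scarce. It had 0.900, 1.90, 1.63 and 1.72 CPM at pH 7.4, 1.10, 0.674, 0.830 and 0.869 CPM at pH 6.9, and 0.585, 0.496, 0.707 and 0.342 CPM at pH 6.4. The highest pH 6.4 library lay below the lowest pH 7.4 library, which was repeat 1. COL3A1 fell 2.86-fold (log2 change -1.52, SE 0.35, adjusted p = 0.00464), on 10 to 30 reads a library at pH 6.4 and 31 to 92 reads at pH 7.4.

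Type I collagen, the main fibre-forming collagen of connective tissue, has COL1A1 and COL1A2 chains. COL1A2 (ENSG00000164692, 7:94394561-94431232 on the plus strand) had 53.6, 54.3, 29.1 and 26.4 CPM at pH 7.4, 42.8, 32.04, 28.02 and 22.1 CPM at pH 6.9, and 23.2, 20.6, 15.6 and 11.6 CPM at pH 6.4. Repeats 1 and 2 were higher than repeats 3 and 4 in each medium, and every pH 6.4 library lay below every pH 7.4 library. COL1A2 fell 2.30-fold at pH 6.4 relative to pH 7.4 (log2 change -1.20, SE 0.27, adjusted p = 0.00452), with -1.30 within repeats 1 and 2 and -1.01 within repeats 3 and 4. COL1A1 had 15.97, 14.6, 15.4 and 15.4 CPM at pH 7.4, 13.6, 9.88, 12.8 and 10.2 CPM at pH 6.9, and 12.9, 12.8, 10.6 and 11.6 CPM at pH 6.4. All pH 6.4 libraries lay below all pH 7.4 libraries, and the pH 6.9 libraries spanned the pH 6.4 range. Its fall was small (log2 change -0.36, SE 0.13, adjusted p = 0.0491) and close to the threshold. It passed under 7 of 23 alternative settings and lost its call without any one of the pH 6.4 or pH 7.4 libraries, or without the pH 6.9 library of repeat 3 or 4.

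COL5A1, the partner chain of COL5A2 and the most abundant fibrillar collagen per length of its exons, did not pass the test. It had 386, 319, 352 and 294 CPM at pH 7.4, 421, 323, 426 and 321 CPM at pH 6.9, and 329.9, 308, 345 and 304 CPM at pH 6.4. The media overlapped (log2 change -0.07, SE 0.11, adjusted p = 0.684, pH 6.4 against pH 7.4).

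Of the other 6 collagens, 1 rose and 3 fell at pH 6.4, with a median log2 change of -0.07. COL13A1 (ENSG00000197467, 10:69801867-69964275 on the plus strand) encodes a transmembrane collagen found at sites of cell adhesion. It had 111, 123, 113 and 133 CPM at pH 7.4, 154, 202, 159 and 201 CPM at pH 6.9, and 162, 164, 234 and 190.5 CPM at pH 6.4. Every pH 6.4 library, and every pH 6.9 library, lay above every pH 7.4 library. COL13A1 rose 1.56-fold at pH 6.4 (log2 change 0.65, SE 0.13, adjusted p = 0.00179). At pH 6.9 it missed the threshold (log2 change 0.57, adjusted p = 0.0513).

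COL6A1 and COL6A2 encode chains of the beaded-filament type VI collagen, and COL6A3 its largest chain. COL6A1 (ENSG00000142156, 21:45981737-46005050 on the plus strand) had 174, 156, 188 and 190 CPM at pH 7.4, 151, 119, 159.6 and 153 CPM at pH 6.9, and 122, 108, 143 and 122 CPM at pH 6.4. Every pH 6.4 library lay below every pH 7.4 library. COL6A1 fell 1.43-fold (log2 change -0.52, SE 0.11, adjusted p = 0.00272), with -0.51 within repeats 1 and 2 and -0.50 within repeats 3 and 4. COL6A2 averaged 63.2 ± 6.13 CPM at pH 6.4 and 51.9 ± 6.14 CPM at pH 7.4 (log2 change 0.28, adjusted p = 0.0811), and COL6A3 95.1 ± 14.6 CPM at pH 6.4 and 75.1 ± 14.4 CPM at pH 7.4 (log2 change 0.34, adjusted p = 0.0737; SD, n = 4 each), so neither passed. Without the pH 7.4 library of repeat 1 COL6A3 passed, with a log2 change of 0.46.

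COL7A1 forms the anchoring fibrils that tie basement membrane to the stroma. It had 306, 222, 211 and 165 CPM at pH 7.4, 279, 181, 176 and 141 CPM at pH 6.9, and 191, 139, 146 and 109 CPM at pH 6.4. The pH 6.4 and pH 7.4 libraries overlapped, since repeat 1 was the highest and repeat 4 the lowest in each medium. COL7A1 fell 1.54-fold (log2 change -0.63, SE 0.22, adjusted p = 0.041), a call kept under 12 of 23 alternative settings. COL12A1, a fibril-associated collagen, had 248, 318, 258 and 302 CPM at pH 7.4, 277, 284, 187 and 251 CPM at pH 6.9, and 232, 220.3, 199 and 194 CPM at pH 6.4. Its pH 6.4 libraries lay below its pH 7.4 libraries (log2 change -0.41, SE 0.12, adjusted p = 0.0208). The call was lost without the pH 7.4 library of repeat 2 or repeat 4, and without the pH 6.4 library of repeat 4.

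Of the 11 basement membrane members that could be tested, 8 were higher at pH 6.4. That is 72.7%, against 15.6% of all genes tested. None of the 11 fell, also at an unadjusted p under 0.05 and with DESeq2 and limma-voom. Their median log2 change was 0.49. Of the 10 other basement membrane genes tested, edgeR called 0, and their median was -0.20. LAMA3 and LAMA4 led the 11 members by fold, and per length LAMB3 and LAMC1 were the most abundant of them. A laminin trimer holds an alpha, a beta and a gamma chain. LAMA3 and LAMB3 are chains of the laminin of epithelial anchorage, while LAMA4 and LAMA5 join LAMB1 or LAMB2 and LAMC1 in vascular and general basement membranes.

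LAMA3 (ENSG00000053747, 18:23689443-23956222 on the plus strand) had 86.3, 78.4, 58.8 and 62.9 CPM at pH 7.4, 114, 137, 95.1 and 98 CPM at pH 6.9, and 178, 172, 157 and 136 CPM at pH 6.4. Each pH 6.4 and each pH 6.9 library lay above each pH 7.4 library, and the pH 6.4 and pH 6.9 libraries overlapped slightly. LAMA3 rose 2.24-fold at pH 6.4 relative to pH 7.4 (log2 change 1.16, SE 0.14, adjusted p = 7.63e-05), with 1.09 in repeats 1 and 2 alone and 1.28 in the others. The call held under each of the 23 alternative settings. LAMA3 has several transcription starts. The window of 250 bases upstream of the start that the RefSeq promoter table lists first (GRCh38.p14), which lies inside the gene, held 2 matches to the AP-1 motif TGANTCA, 125 and 69 bases before it. LAMA3 was the only member of 31 in that table with a match on either strand, a share of 3.23% against 6.57% of all 35116 promoters listed. The matches are shown in capitals, plus strand, at chr18:23872883-23872912 and chr18:23872939-23872968. They are letters in a window and not a measured binding site.
LAMA3 upstream match: tctggcacaggcTGACTCAtgtgtgaagtt
LAMA3 downstream match: gccttcctcaccTGAGTCAggcaggcccgg

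LAMB3, its usual beta partner, had 409, 316, 338 and 329.8 CPM at pH 7.4, 386, 352, 299.7 and 369 CPM at pH 6.9, and 461, 574, 354 and 562 CPM at pH 6.4. The pH 6.4 and pH 7.4 libraries overlapped, because the pH 6.4 library of repeat 3 lay below the pH 7.4 library of repeat 1. LAMB3 rose 1.40-fold (log2 change 0.49, SE 0.14, adjusted p = 0.0159). The call was lost without the pH 6.4 library of repeat 2 or repeat 4.

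LAMA4 (ENSG00000112769, 6:112108760-112254939 on the minus strand) was far lower, with 2.00, 1.84, 1.91 and 2.41 CPM at pH 7.4, 4.96, 4.88, 3.03 and 3.24 CPM at pH 6.9, and 6.97, 6.02, 4.36 and 4.49 CPM at pH 6.4. Each pH 6.4 and each pH 6.9 library lay above each pH 7.4 library. LAMA4 rose 2.67-fold (log2 change 1.42, SE 0.23, adjusted p = 0.000504), with 1.76 within repeats 1 and 2 and 1.02 within repeats 3 and 4. LAMB1 had 244, 253, 198 and 223 CPM at pH 7.4, 311, 323, 218 and 276 CPM at pH 6.9, and 387, 403, 293 and 368 CPM at pH 6.4. It rose 1.58-fold (log2 change 0.66, SE 0.13, adjusted p = 0.00164), with 0.67 and 0.66 within the 2 sets of repeats. Each pH 6.4 library lay above each pH 7.4 library. LAMC1, the gamma chain of most laminins, averaged 470.3 ± 23.03 CPM at pH 7.4, 499.7 ± 48.3 CPM at pH 6.9 and 689.5 ± 120.2 CPM at pH 6.4 (SD, n = 4) and rose 1.47-fold (log2 change 0.55, SE 0.12, adjusted p = 0.00271).

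COL4A1 and COL4A2 encode the chains of the common type IV collagen and lie head to head on chromosome 13 (COL4A1 at 13:110148963-110307233 on the minus strand, COL4A2 at 13:110305812-110513209 on the plus strand). COL4A1 had 56.96, 57.5, 54.3 and 55.6 CPM at pH 7.4, 66.3, 67.8, 56.98 and 66.1 CPM at pH 6.9, and 81.8, 93.6, 65.9 and 93.8 CPM at pH 6.4. Each pH 6.4 library lay above each pH 7.4 library, with repeat 3 the lowest of the 4 at pH 6.4 and at pH 6.9. COL4A1 rose 1.49-fold (log2 change 0.58, SE 0.11, adjusted p = 0.00109). COL4A2 averaged 159.5 ± 9.48 CPM at pH 7.4, 200.5 ± 16.3 CPM at pH 6.9 and 195 ± 12.98 CPM at pH 6.4 (SD, n = 4). It rose 1.22-fold (log2 change 0.29, SE 0.08, adjusted p = 0.0132), and missed the threshold under scaling by library size. The RefSeq starts of the pair are 126 bases apart, and the window between them holds 1 CCAAT box, 105 bases before the COL4A2 start and 26 before the COL4A1 start on the other strand. It is shown in capitals on the plus strand of GRCh38.p14, at chr13:110307166-110307195. CCAAT on either strand was found in 9 of 31 member promoters, 29%, and in 32% of all promoters.
COL4A2 and COL4A1 shared window: cgggccgagctccCCAATttgttggcgctg

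AGRN, agrin, is a heparan sulfate proteoglycan that binds laminin. It averaged 434 ± 56.9 CPM at pH 6.4 and 326 ± 40.7 CPM at pH 7.4 (SD, n = 4 each) and rose 1.33-fold (log2 change 0.41, SE 0.11, adjusted p = 0.0124), with overlap of 1 pH 6.4 and 1 pH 7.4 library. The remaining chains did not pass. LAMA5 averaged 338 ± 57.1 CPM at pH 6.4 and 349 ± 32.8 CPM at pH 7.4 (log2 change -0.04, adjusted p = 0.821). LAMB2 averaged 337 ± 31.5 CPM at pH 6.4 and 303 ± 24.7 CPM at pH 7.4 (log2 change 0.15, adjusted p = 0.198). HSPG2, perlecan, averaged 230.3 ± 37.6 CPM at pH 6.4 and 211 ± 27.95 CPM at pH 7.4 (log2 change 0.12, adjusted p = 0.499; SD, n = 4 each). NID1, nidogen, which links laminin to type IV collagen, was too rare to test, with 2 reads over all 12 libraries and 10 of them at 0.

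**Figure D2:**
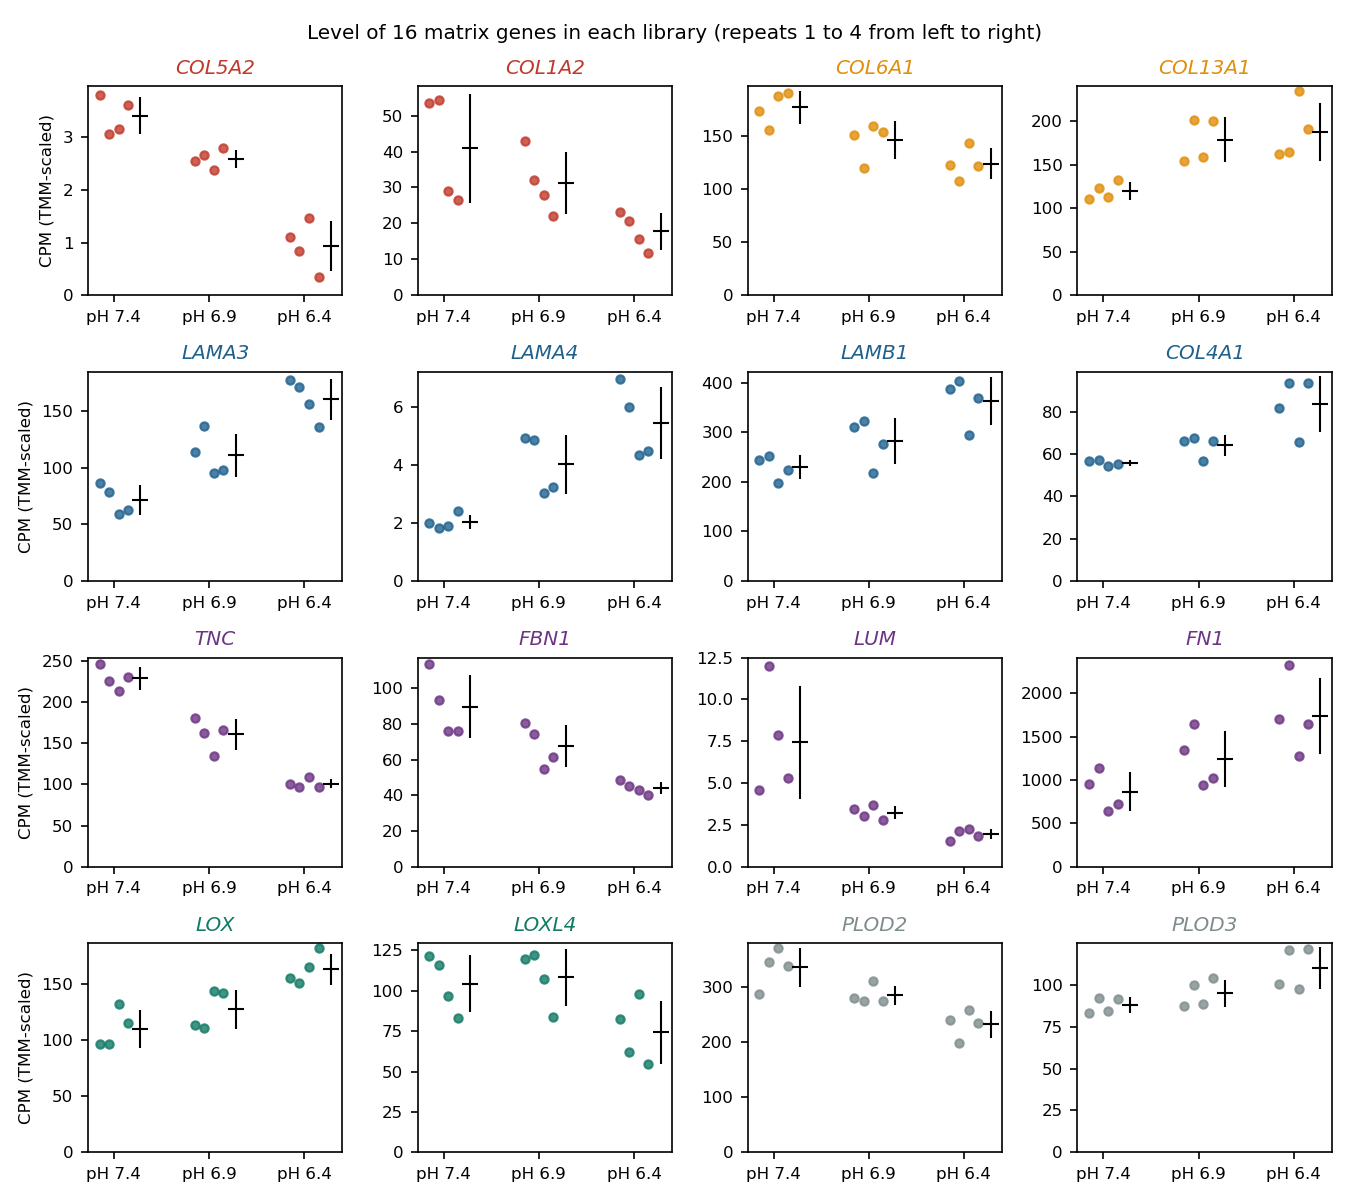
TMM-scaled CPM of 16 members in the 4 libraries of each medium, in the order pH 7.4, pH 6.9 and pH 6.4. Points are libraries, repeats 1 to 4 from left to right, colours mark the role groups, and the cross beside them is the mean with 1 SD. COL5A2, LUM and TNC step down toward pH 6.4, and LAMA3, LAMA4 and FN1 step up.

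The matrix glycoproteins divided, with 2 higher and 3 lower of the 6 tested and a median log2 change of -0.35 at pH 6.4. TNC (ENSG00000041982, 9:115019578-115118257 on the minus strand) encodes tenascin-C, an adhesion-modulating protein of wound and tumour stroma. It had 247, 226, 214 and 230.3 CPM at pH 7.4, 180.4, 162, 135 and 166 CPM at pH 6.9, and 100.5, 96.9, 109 and 97.4 CPM at pH 6.4. The 3 media did not overlap. TNC fell 2.27-fold at pH 6.4 (log2 change -1.18, SE 0.09, adjusted p = 2.13e-06), the lowest adjusted p among the members, with -1.25 within repeats 1 and 2 and -1.09 within repeats 3 and 4.

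LUM (ENSG00000139329, 12:91102629-91111831 on the minus strand) encodes lumican, a small proteoglycan that binds collagen fibrils. It had 4.56, 11.99, 7.87 and 5.31 CPM at pH 7.4, 3.42, 3.06, 3.68 and 2.76 CPM at pH 6.9, and 1.56, 2.14, 2.26 and 1.82 CPM at pH 6.4. Each pH 6.4 library lay below each library of the other media, and the pH 7.4 libraries varied among themselves, with repeat 2 the highest. LUM fell 3.82-fold (log2 change -1.93, SE 0.28, adjusted p = 0.00022), the largest fold among the members tested. FBN1 (ENSG00000166147, 15:48408306-48645849 on the minus strand), fibrillin of the microfibrils that carry elastin and latent TGF-beta, had 114, 93.2, 75.96 and 76.1 CPM at pH 7.4, 80.2, 74.5, 54.6 and 61.7 CPM at pH 6.9, and 48.3, 44.99, 43.1 and 40.1 CPM at pH 6.4. All pH 6.4 libraries lay below all libraries of the other media. FBN1 fell 2.03-fold (log2 change -1.02, SE 0.14, adjusted p = 0.000179).

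FN1 (ENSG00000115414, 2:215360440-215436172 on the minus strand), fibronectin, is a main ligand of integrins. It had 959, 1138, 639.7 and 719 CPM at pH 7.4, 1342, 1645, 942 and 1022 CPM at pH 6.9, and 1707, 2327, 1271 and 1650 CPM at pH 6.4. Each pH 6.4 library lay above each pH 7.4 library, and repeats 1 and 2 were above repeats 3 and 4 in each medium. FN1 rose 2.01-fold (log2 change 1.01, SE 0.22, adjusted p = 0.00319), with 0.95 within repeats 1 and 2 and 1.12 within repeats 3 and 4. THBS1 (ENSG00000137801, 15:39581079-39599466 on the plus strand), thrombospondin, activates latent TGF-beta and inhibits vessel growth. It had 1931, 1927, 1770 and 1791 CPM at pH 7.4, 2168, 2312, 2083 and 2035 CPM at pH 6.9, and 2332, 2636, 2091 and 2457 CPM at pH 6.4. Its pH 6.4 libraries lay above its pH 7.4 libraries, and it rose 1.28-fold (log2 change 0.36, SE 0.08, adjusted p = 0.00552).

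SPARC, a collagen-binding protein, averaged 2.92 ± 0.342 CPM at pH 6.4 and 2.34 ± 1.21 CPM at pH 7.4 (SD, n = 4 each) and did not pass (log2 change 0.32, adjusted p = 0.457). Its pH 7.4 library of repeat 1 had 4.15 CPM, against 1.70 to 1.78 CPM in the other pH 7.4 libraries. Without that library SPARC rose, with a log2 change of 0.76 (adjusted p = 0.0192). FBN2, a second fibrillin, had 34 reads over all 12 libraries and was not tested.

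Among the 4 lysyl oxidases 1 rose and 1 fell at pH 6.4, and the median log2 change was 0.28. LOX (ENSG00000113083, 5:122063195-122078360 on the minus strand), the founding crosslinking enzyme, had 96.6, 96.4, 132 and 116 CPM at pH 7.4, 114, 111, 144 and 142 CPM at pH 6.9, and 155, 151, 165 and 182 CPM at pH 6.4. Every pH 6.4 library lay above every pH 7.4 library. LOX rose 1.48-fold (log2 change 0.57, SE 0.12, adjusted p = 0.00269), with 0.67 within repeats 1 and 2 and 0.50 within repeats 3 and 4. LOXL4 had 122, 116, 96.7 and 83.2 CPM at pH 7.4, 119.8, 122, 107 and 83.9 CPM at pH 6.9, and 82.3, 62.4, 97.7 and 54.5 CPM at pH 6.4. Its media overlapped, and the pH 6.4 library of repeat 3 was level with the pH 7.4 library of the same number. LOXL4 fell 1.40-fold (log2 change -0.49, SE 0.18, adjusted p = 0.0471), a call kept under 10 of 23 alternative settings.

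LOXL2, the most abundant lysyl oxidase per length, is known for crosslinking type IV collagen. It had 503, 512, 508 and 494 CPM at pH 7.4, 512, 537, 513 and 514 CPM at pH 6.9, and 491, 484, 529.5 and 493 CPM at pH 6.4. All 12 libraries lay within a narrow range, and LOXL2 did not pass (log2 change -0.01, SE 0.06, adjusted p = 0.894). LOXL1, which acts on elastic fibres, averaged 14.2 ± 4.85 CPM at pH 6.4 and 9.29 ± 2.61 CPM at pH 7.4 (SD, n = 4 each; log2 change 0.61, adjusted p = 0.0805) and did not pass. LOXL1 passed in DESeq2 and without the pH 6.4 library of repeat 2.

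Of the 5 collagen hydroxylases 1 fell and 1 rose, with a median log2 change of 0.11. PLOD2 (ENSG00000152952, 3:146069440-146163653 on the minus strand) hydroxylates the telopeptide lysines from which the stable crosslinks of fibrillar collagen form. It had 287, 344, 369.8 and 337 CPM at pH 7.4, 280.1, 273, 309 and 273 CPM at pH 6.9, and 239, 199, 257 and 233 CPM at pH 6.4. Every pH 6.4 library lay below every pH 7.4 library. PLOD2 fell 1.44-fold (log2 change -0.53, SE 0.09, adjusted p = 0.00103), with -0.52 within each set of repeats. PLOD3, a lysyl hydroxylase that also adds sugars to collagen, had 82.9, 92.3, 84.2 and 91.2 CPM at pH 7.4, 87.4, 99.7, 88.4 and 104 CPM at pH 6.9, and 101, 121, 97.7 and 121 CPM at pH 6.4. Its pH 6.4 libraries lay above its pH 7.4 libraries (log2 change 0.33, SE 0.09, adjusted p = 0.0153), and the call was lost without the pH 6.4 library of repeat 2 or repeat 4.

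P4HA1, a catalytic chain of prolyl hydroxylase and the most abundant hydroxylase here per length, had 222, 214, 170.2 and 159.5 CPM at pH 7.4, 224, 216, 202 and 180.4 CPM at pH 6.9, and 205, 197, 185 and 175 CPM at pH 6.4. The media overlapped (log2 change -0.01, SE 0.11, adjusted p = 0.968). PLOD1 averaged 161 ± 13.04 CPM at pH 6.4 and 147 ± 11.7 CPM at pH 7.4 (log2 change 0.13, adjusted p = 0.249), and P4HA2 95.9 ± 17.3 CPM at pH 6.4 and 89.2 ± 21.2 CPM at pH 7.4 (log2 change 0.10, adjusted p = 0.694; SD, n = 4 each), and neither passed.

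LOX, PLOD2 and P4HA1 are textbook targets of the hypoxia-inducible factors, which bind the core ACGTG. At pH 6.4 LOX rose, PLOD2 fell and P4HA1 did not pass. Their upstream windows from RefSeq (GRCh38.p14, 250 bases before the start, both strands) held 4 copies of ACGTG in LOX, 2 in PLOD2 and 1 in P4HA1. In all, 6 of 31 member promoters held it, 19.4%, against 18.5% of all promoters. The stretches below run 5′ to 3′ along the gene's strand, with each ACGTG, or CACGT for a match on the other strand, in capitals. The LOX stretch (chr5:122078361-122078509, minus strand) holds 2 of its 4 copies. PLOD2 is shown over the whole window (chr3:146161185-146161434, minus strand) and P4HA1 around its copy (chr10:73096936-73096965, minus strand). The matches are descriptions of the letters and not measured sites.
LOX: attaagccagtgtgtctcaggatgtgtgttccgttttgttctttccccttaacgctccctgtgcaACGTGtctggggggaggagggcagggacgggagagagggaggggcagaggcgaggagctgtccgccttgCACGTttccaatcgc
PLOD2: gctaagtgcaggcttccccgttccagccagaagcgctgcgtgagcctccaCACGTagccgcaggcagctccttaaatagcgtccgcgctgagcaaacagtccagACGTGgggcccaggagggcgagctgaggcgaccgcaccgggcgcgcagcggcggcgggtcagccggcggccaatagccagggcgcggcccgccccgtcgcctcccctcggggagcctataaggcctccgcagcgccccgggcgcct
P4HA1: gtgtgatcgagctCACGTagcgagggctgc

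At pH 6.9 only TNC passed. It averaged 161 ± 19.1 CPM at pH 6.9 and 229 ± 13.7 CPM at pH 7.4 (SD, n = 4 each; log2 change -0.51, SE 0.09, adjusted p = 0.0148). That is 2.70% of the 37 members tested, against 0.724% of all genes tested (0.313% higher and 0.410% lower). The comparison shares its pH 7.4 libraries with that of pH 6.4. No member rose in the main edgeR fit or in limma-voom, while DESeq2 called 6 higher (COL6A3, COL13A1, COL4A2, LAMA3, LAMA4 and PLOD1) and 2 lower (TNC and LUM). Other edgeR settings did call members higher, such as 4 with no filter on low counts and 1 in the fit of only the 2 media compared. At an unadjusted p under 0.05 edgeR had 10 members higher and 7 lower, 45.9% of those tested, against 11.9% of all genes. The TNC call was lost without the pH 7.4 library of repeat 1 and without the pH 6.9 library of repeat 2, and in the first of these fits COL6A3 and LAMA3 rose and LUM fell. Without the pH 6.4 library of repeat 2, COL13A1 also rose. Without the pH 6.4 library of repeat 3, which belongs to neither medium compared but enters the shared fit and the filter, 6 members rose and 2 fell, the same genes that DESeq2 called. Over all genes tested that fit called 1.71% and DESeq2 3.19%.

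Several members missed the threshold narrowly at pH 6.9 against pH 7.4. They include LAMA3 (log2 change 0.63, adjusted p = 0.0533), LAMA4 (log2 change 0.98, adjusted p = 0.0671), LUM (log2 change -1.20, adjusted p = 0.0558) and COL6A3 (log2 change 0.58, adjusted p = 0.0687). All 11 tested basement membrane members had an estimate above 0 at pH 6.9, with a median of 0.20, though LAMB2 (0.0025) and LAMB3 (0.0155) were near 0. Over all genes tested, 9083 of 17544 had an estimate above 0. Of the 10 other basement membrane genes tested, 4 had one, with a median of -0.04. None of the 11 members was called, and 4 had an unadjusted p under 0.05 (36.4%, against 11.9% of all genes). DESeq2 called 3 of the 11 higher and limma-voom none. In 12 members the pH 6.9 and pH 7.4 libraries did not overlap, against 10.1% of all genes.

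The pH 6.9 mean lay between the other 2 means in 25 of 37 members, or 67.6%, against 55.3% of all genes tested. Of the 13 members that rose at pH 6.4, 12 had such a mean, with COL4A2 the exception, and of the 12 that fell, 10 had, with COL1A1 and LOXL4 the exceptions. Called genes have pH 6.4 and pH 7.4 means set apart, which leaves more room for a mean between them. A larger share of the members than of all genes was called, and no share among all called genes is given. These counts therefore do not show a graded response. The pH 6.9 mean was the highest of the 3 in 9 members, or 24.3%, against 23.9% of all genes. They were COL5A1, COL6A3, COL4A2, LAMA5, LOXL1, LOXL2, LOXL4, PLOD1 and P4HA1. COL6A3 averaged 75.1 ± 14.4 CPM at pH 7.4, 113 ± 11.96 CPM at pH 6.9 and 95.1 ± 14.6 CPM at pH 6.4 (SD, n = 4), and PLOD1 averaged 147 ± 11.7 CPM at pH 7.4, 183 ± 9.09 CPM at pH 6.9 and 161 ± 13.04 CPM at pH 6.4.

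Between the acid media, 4 members rose and 5 fell at pH 6.4 relative to pH 6.9, which is 24.3% of those tested, against 17.0% of all genes (8.83% higher and 8.20% lower). In 7 members the libraries of the 2 media did not overlap, against 20.4% of all genes. Both this comparison and that with pH 7.4 use the same pH 6.4 libraries. The members that rose were COL4A1 (log2 change 0.38, adjusted p = 0.0245), LAMA3 (log2 change 0.53, adjusted p = 0.0196), LAMB3 (log2 change 0.47, adjusted p = 0.0323) and LAMC1 (log2 change 0.46, adjusted p = 0.0157), all of the basement membrane. Those that fell were COL5A2 (log2 change -1.45, adjusted p = 0.00848), FBN1 (log2 change -0.62, adjusted p = 0.011), TNC (log2 change -0.67, adjusted p = 0.00155), LOXL4 (log2 change -0.54, adjusted p = 0.047) and PLOD2 (log2 change -0.29, adjusted p = 0.0481). LAMB3 averaged 488 ± 103 CPM at pH 6.4 and 352 ± 37.3 CPM at pH 6.9, and LAMC1 averaged 689.5 ± 120.2 CPM at pH 6.4 and 499.7 ± 48.3 CPM at pH 6.9 (SD, n = 4 each). The count depended on single libraries. It was 3 without the pH 6.4 library of repeat 2, 4 without that of repeat 4, 4 without the pH 6.9 library of repeat 3, 5 without that of repeat 1, and 15 without the pH 6.4 library of repeat 3. The share called over all genes moved too. It was 6.54% without the pH 6.4 library of repeat 2 and 27.6% without that of repeat 3.

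Levels per length (CPM per kilobase of exons) differed widely among the members. Over all 12 libraries THBS1 led with a mean of 232, followed by LOXL2 at 89.0, LAMB3 at 84.5, FN1 at 73.9, LAMC1 at 65.8 and P4HA1 at 63.4. The fibrillar collagens other than COL5A1 lay far lower. COL1A2 had 2.69, COL1A1 1.32, COL5A2 0.310 and COL3A1 0.144, against 30.8 for COL5A1. The largest decreases by fold, those of LUM, COL5A2 and COL3A1, were thus in genes of low level, and LAMA4, the member with the largest increase, had 0.332.

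**Figure D3:**
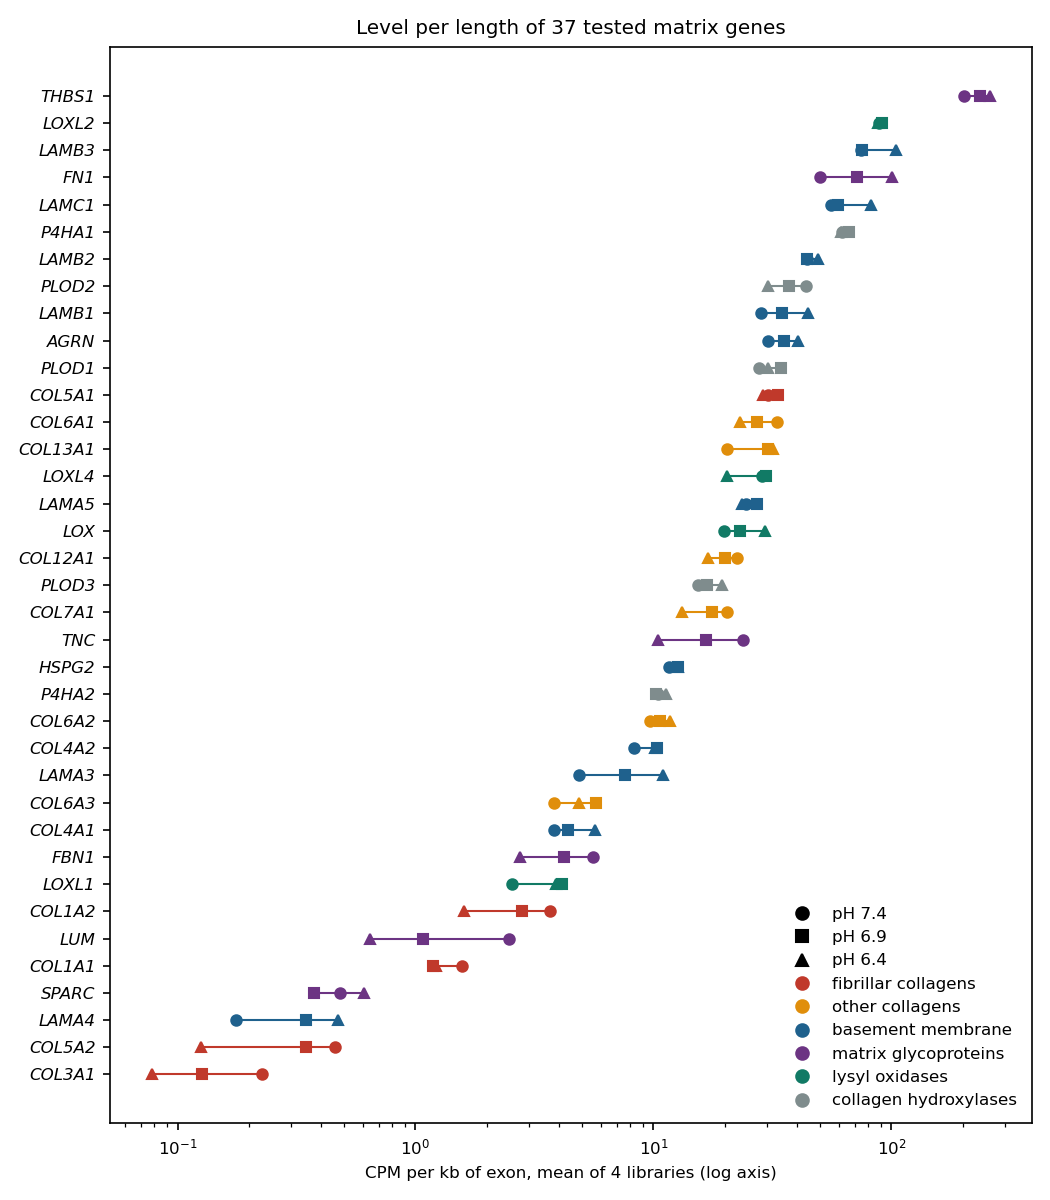
Mean level of each member in CPM per kilobase of exons on a log axis, with points for pH 7.4, pH 6.9 and pH 6.4. The 37 tested members are sorted by their mean over the 12 libraries and coloured by role. THBS1 is at the top, with an overall mean of 232, and COL3A1 at the bottom, with 0.144.

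Together the 39 members took 0.825 to 0.903% of the counted reads in pH 7.4 libraries, 0.908 to 1.01% at pH 6.9 and 0.959 to 1.03% at pH 6.4. THBS1 and FN1 made up 29.8 to 34.5% of the members' reads at pH 7.4, 33.9 to 39.5% at pH 6.9 and 35.6 to 44.2% at pH 6.4. Without them the other members took 0.570 to 0.607% at pH 7.4, 0.598 to 0.635% at pH 6.9 and 0.573 to 0.618% at pH 6.4. These ranges overlap.

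Ratios of levels per length between related chains or enzymes are given as descriptions with no test. COL5A1 over COL5A2 had a median of 68.5 at pH 7.4 (54.2 to 74.2 over 4 libraries), 95.6 at pH 6.9 (76.7 to 119) and 222.0 at pH 6.4 (157 to 592). The 592 is the pH 6.4 library of repeat 4, with only 10 COL5A2 reads, and the other pH 6.4 libraries had 157 to 244. COL6A1 over COL6A2 had 3.41 at pH 7.4 (2.81 to 4.35), 2.58 at pH 6.9 (2.18 to 3.06) and 1.94 at pH 6.4 (1.72 to 2.38). LAMB1 over LAMB2 had 0.647 at pH 7.4 (0.592 to 0.669), 0.835 at pH 6.9 (0.612 to 0.855) and 0.924 at pH 6.4 (0.8287 to 0.951). LOX over LOXL4 had 0.724 at pH 7.4 (0.524 to 0.915), 0.756 at pH 6.9 (0.596 to 1.11) and 1.42 at pH 6.4 (1.11 to 2.20). LAMA3 over LAMA5 had 0.200 at pH 7.4 (0.147 to 0.269), 0.261 at pH 6.9 (0.218 to 0.403) and 0.480 at pH 6.4 (0.365 to 0.573). For these 5 pairs the pH 6.4 and pH 7.4 libraries did not overlap. Each of the 5 holds a gene called in that comparison, so the separation largely restates those calls and is no further support. No share over other gene pairs was computed, and P4HA1 over PLOD2, given at the end, overlapped. COL1A1 over COL1A2 had 0.469 at pH 7.4 (0.306 to 0.663), 0.440 at pH 6.9 (0.350 to 0.522) and 0.736 at pH 6.4 (0.633 to 1.14), with overlap. COL4A1 over COL4A2 had 0.456 at pH 7.4 (0.432 to 0.501), 0.420 at pH 6.9 (0.388 to 0.456) and 0.593 at pH 6.4 (0.418 to 0.656), also with overlap.

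**Figure D4:**
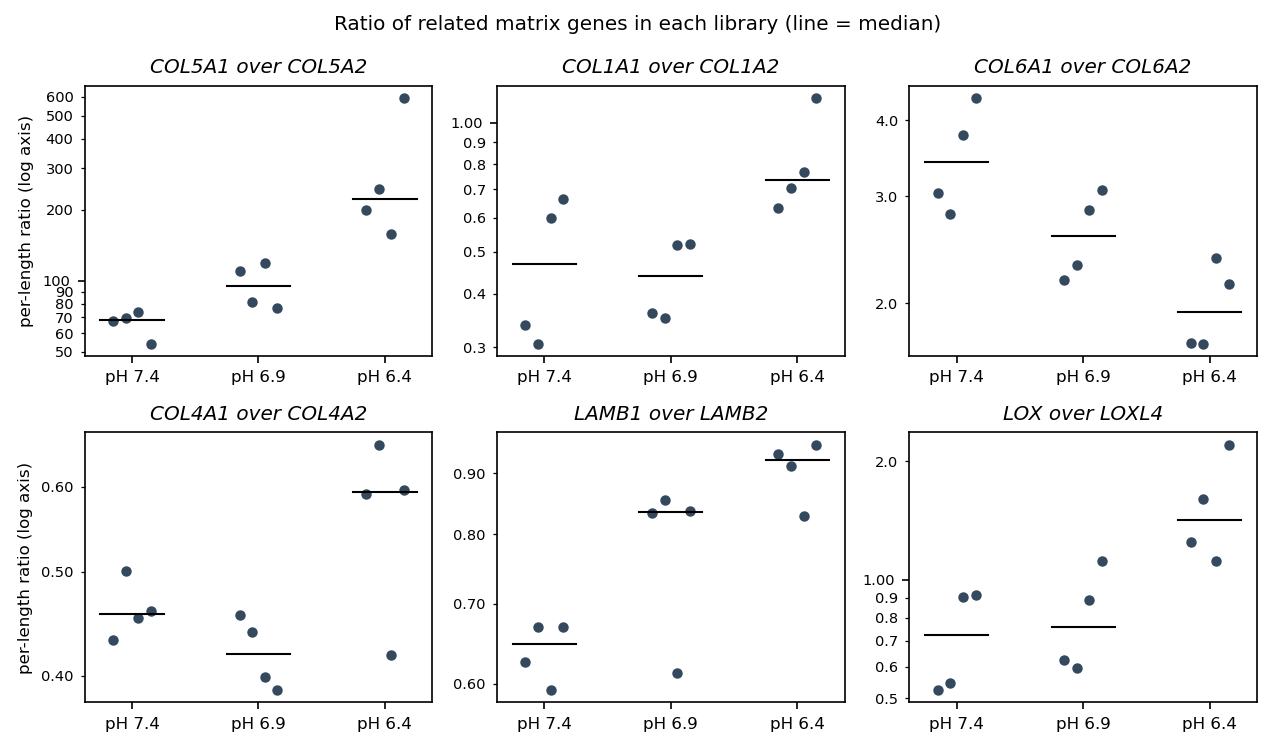
Ratio of levels per length for 6 pairs of related members, 1 point per library and a line at the median, on log axes in the order pH 7.4, pH 6.9 and pH 6.4. COL5A1 over COL5A2 is higher at pH 6.4 (157 to 592) than at pH 7.4 (54.2 to 74.2), and COL6A1 over COL6A2 is lower (1.72 to 2.38 against 2.81 to 4.35). The value of 592 rests on 10 COL5A2 reads.

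Of 84 other matrix genes listed by role, 59 could be tested, and at pH 6.4 relative to pH 7.4 15 rose and 7 fell, which is 37.3%, against 30.3% of all genes tested. The folding and modification genes rose in 7 of 16 cases and none fell, also at an unadjusted p under 0.05 and with DESeq2 and limma-voom, with a median log2 change of 0.30. The 7 were SERPINH1, the collagen chaperone, with CRTAP, P3H1, P3H4, COLGALT1, FKBP14 and MIA3. FKBP14, a prolyl isomerase of the endoplasmic reticulum, averaged 68.7 ± 17.4 CPM at pH 6.4 and 40.1 ± 2.95 CPM at pH 7.4 (log2 change 0.78, adjusted p = 0.00152). P3H1, which hydroxylates a proline in fibrillar chains, averaged 199 ± 37.7 CPM at pH 6.4 and 144 ± 9.56 CPM at pH 7.4 (log2 change 0.47, adjusted p = 0.00565). MIA3, which loads procollagen into transport carriers, averaged 118 ± 29.01 CPM at pH 6.4 and 84.7 ± 8.34 CPM at pH 7.4 (log2 change 0.48, adjusted p = 0.0271; SD, n = 4 each).

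Of the 9 other collagens tested 2 rose and 2 fell. COL27A1, a fibrillar collagen, averaged 52.04 ± 11.3 CPM at pH 6.4 and 31.02 ± 5.995 CPM at pH 7.4 (log2 change 0.75, adjusted p = 0.00509). COL8A1, a network collagen of vessel walls, averaged 287 ± 15.5 CPM at pH 6.4 and 127 ± 11.9 CPM at pH 7.4 (log2 change 1.18, adjusted p = 5.3e-05). COL24A1, a minor fibrillar collagen, averaged 0.325 ± 0.129 CPM at pH 6.4 and 1.35 ± 0.737 CPM at pH 7.4 (log2 change -2.05, adjusted p = 0.00715), and COL16A1 averaged 4.03 ± 1.00 CPM at pH 6.4 and 6.90 ± 1.66 CPM at pH 7.4 (log2 change -0.77, adjusted p = 0.0313; SD, n = 4 each). Among 8 processing genes tested, ADAMTS14, which removes procollagen amino propeptides, averaged 8.02 ± 3.27 CPM at pH 6.4 and 1.68 ± 0.912 CPM at pH 7.4 (log2 change 2.24, adjusted p = 0.0012), and BMP1, which removes the carboxy propeptides, averaged 68.3 ± 3.19 CPM at pH 6.4 and 81.01 ± 4.56 CPM at pH 7.4 (log2 change -0.25, adjusted p = 0.0274).

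Of 16 other glycoproteins and proteoglycans tested, 5 rose and 4 fell. FBLN1, fibulin, averaged 1.62 ± 0.655 CPM at pH 6.4 and 4.34 ± 1.05 CPM at pH 7.4 (log2 change -1.41, adjusted p = 0.00157). VCAN, versican, averaged 0.676 ± 0.110 CPM at pH 6.4 and 2.06 ± 2.31 CPM at pH 7.4 (log2 change -1.60, adjusted p = 0.0381), with an SD above the mean at pH 7.4. TNXB averaged 24.99 ± 6.40 CPM at pH 6.4 and 11.8 ± 3.19 CPM at pH 7.4 (log2 change 1.08, adjusted p = 0.00175), but it shares sequence with a pseudogene copy, so its reads are uncertain. None of the 10 other basement membrane genes tested was called by edgeR, where 2 had an unadjusted p under 0.05, while DESeq2 called 1 higher and 1 lower and limma-voom 1 lower. At pH 6.9 relative to pH 7.4 edgeR called none of the 59, with 8 at an unadjusted p under 0.05, against 2 higher and 1 lower in DESeq2 and none in limma-voom. Between pH 6.4 and pH 6.9, 8 rose and 4 fell, 20.3% of those tested, against 17.0% of all genes.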

How the data were processed

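The authors deposited raw read counts per gene for 12 libraries. Per the labels' protocols, the libraries were stranded and made from poly(A) RNA, and the submitters' processing notes name STAR, featureCounts and GRCh38.p13 without versions. The sources used here give neither the strand setting nor the treatment of shared reads. More than 5% of the exon bases of HSPG2, THBS1, SPARC, LOXL1, LOXL2, PLOD3 and P4HA2 overlap another gene, so some of their reads may be shared. At most 0.424% of reads lay in rows without a gene symbol. No pair of libraries held identical counts.

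All genes were fitted together in edgeR 4.0.16 (R 4.3.3; filterByExpr, TMM, robust quasi-likelihood test, 1 term per medium over all 12 libraries), which kept 17544 of 60664 genes and 37 of 39 members. Calls needed an adjusted p under 0.05 (Benjamini-Hochberg, over all genes tested). SE is the log2 change divided by the square root of F. The pipeline was tested on simulated data. At pH 6.4 against pH 7.4 it recovered 32.8% of genes with a true 1.5-fold change, 70.1% at 2-fold and 86.4% at 4-fold. For 1.5-fold changes it recovered 47.8% at pH 6.9 against pH 7.4 and 29.9% at pH 6.4 against pH 6.9. A member that did not pass may thus still have changed. Depth limits COL3A1, COL5A2, LAMA4, SPARC and LUM most.

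Alternatives were DESeq2 1.42.0, limma-voom (limma 3.58.1), other scalings and filters, a replicate block, and fits without single libraries or sets of repeats. The members and lists were chosen with earlier results of these data known. Library values are given for the 4 called members per role with the largest change (mean of at least 1 CPM) and the most abundant per length. For other matrix genes, values of up to 3 called genes per list are given by the same measure, with COL27A1 in addition. Gene positions and exon lengths are from GENCODE 29 (GRCh38), which matched 58396 gene IDs. Promoters are from a RefSeq table (GRCh38.p14) that matched 31 of 39 members. Each matched member counts once, by its first listed promoter, whereas shares over all promoters count every promoter listed, of any gene type.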

Additional observations from a re-analysis of the deposited data

Results flagged for a closer look

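In 111 groups of 4 libraries (37 members in 3 media), 3 held a library whose gap to the nearest of the others passed Dixon's 95% limit for 4 values, as a share of the range. Chance alone gives such a gap in about 1 of 20 groups. SPARC, a collagen-binding glycoprotein, had 4.15 CPM in the pH 7.4 library of repeat 1, against 1.70 to 1.78 CPM in the other 3 (0.966 of the range), and that library also had the fewest detected genes. LOXL2 had 537 CPM in the pH 6.9 library of repeat 2, against 512 to 514 CPM in the others (0.943 of a narrow range). COL4A1 had 57.0 CPM in the pH 6.9 library of repeat 3, against 66.1 to 67.8 CPM in the others (0.838 of the range). Causes were not tested.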

How the results depend on the processing

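No call of a member changed direction under the 23 alternatives run, and at pH 6.4 against pH 7.4 a group of 13 members passed under each of them. With repeats 3 and 4 only, 14 members were called in that comparison, 7 higher and 7 lower. Over all genes tested that fit called 8.9%, against 30.3% in the main fit. At pH 6.9 against pH 7.4, where 1 was called, DESeq2 called 8 (6 higher, 2 lower), the fit with no filter on low counts 6 (4 higher, 2 lower), a filter of at least 1 CPM in 4 libraries 2 (0 higher, 2 lower), the fit of only the 2 media compared 2 (1 higher, 1 lower), and the fits with repeats 1 and 2 only, with repeats 3 and 4 only, and without the 2 libraries with the fewest detected genes 0 (0 higher, 0 lower). At pH 6.4 against pH 6.9, the fit with no filter called 6 higher and 3 lower, and repeats 3 and 4 alone gave 0 (0 higher, 0 lower). With those repeats alone, 0 of all 17171 genes tested were called at pH 6.9 against pH 7.4, and 0 also at pH 6.4 against pH 6.9. Scaling by library size moved the share of higher calls over all genes in that comparison to 38.2%, against 51.9% with TMM, and gave 4 members higher and 6 lower.

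Leaving out 1 library at a time gave 19 to 24 called members at pH 6.4 against pH 7.4 (11 to 15 higher, 8 to 11 lower), 0 to 8 at pH 6.9 against pH 7.4 (0 to 6 higher, 0 to 2 lower), and 3 to 15 at pH 6.4 against pH 6.9 (0 to 7 higher, 3 to 8 lower). Over all genes tested these fits called 21.2 to 35.8%, 0.218 to 1.71% and 6.54 to 27.6% in the same order. The labels do not say that a repeat number marks a shared culture. Libraries with the same number deviated together in part, with correlations of 0.045 to 0.447 over 12 pairs, of which 10 were over 0.1, and 10 of 12 libraries correlated best with their own number, a hint of a shared repeat effect from the data and not the design. Pairs with different numbers had correlations of -0.413 to 0.235. Since the labels do not tie the repeat numbers, the main fit did not take them as pairs. With a replicate block, 17 members rose and 12 fell at pH 6.4 against pH 7.4. In that fit 16 were called at pH 6.9 against pH 7.4 (11 higher, 5 lower), and 23 at pH 6.4 against pH 6.9 (11 higher, 12 lower). The block also raised the share called over all genes tested, to 41.6%, 5.4% and 31.1% in the same order, from 30.3%, 0.724% and 17.0%. The causes of these shifts were not tested. With 4 libraries per medium, the depth of 10 to 62 reads limits COL3A1 and COL5A2 at pH 6.4.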

Other observations

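The ratio of P4HA1, a prolyl hydroxylase chain, to PLOD2, a lysyl hydroxylase, per length had a median of 1.36 at pH 7.4 (1.14 to 1.92 over 4 libraries), 1.79 at pH 6.9 (1.61 to 1.98) and 1.99 at pH 6.4 (1.78 to 2.45). The ranges of pH 6.4 and pH 7.4 overlapped. Over the 31 members with a listed promoter, the GC box GGGCGG occurred on either strand of the 250 upstream bases in 23 (74.2%), against 42.6% of all 35116 promoters, and TATAAA in 4 (12.9%), against 10.7%. The members are protein-coding genes, each counted once by its first listed promoter. The background takes every listed promoter with no filter on gene type, so the sets are unlike. These shares describe letters only and were not tested.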
